A study of Drosophila melanogaster with 2 samples.

Results

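The mitochondrial ribosomal protein genes of Drosophila melanogaster were taken as the protein-coding genes of Ensembl release 115 whose symbol starts with mRpL or mRpS and a digit. There were 73 such genes among the 13968 protein-coding genes on the assembled arms, 47 named as proteins of the large subunit and 26 as proteins of the small subunit. At their promoters, binding of the C2H2 zinc finger protein Sry-beta was described from chromatin immunoprecipitation and sequencing (ChIP-seq) of whole embryos aged 0 to 12 h, both sexes together. The embryos came from 1 transgenic line that stably expresses Sry-beta fused at its C-terminus to GFP. There was 1 group with biological replicates 2 and 4. No untagged or untreated group was analysed here, and whole embryos mix all cell types of these stages. In the labels' free text both libraries are input controls, but the assay title and the antibody name a ChIP of Sry-beta and peaks were called, so they were read as ChIP libraries. Because the peak lists hold no read counts, depth is unknown.

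Mitochondrial ribosomes translate the few messenger RNAs made from mitochondrial DNA, which encode subunits of the respiratory chain and ATP synthase. All of their proteins are encoded in the nucleus, made in the cytoplasm and imported, so their supply depends on nuclear promoters. Many of these promoters are bidirectional: the transcription start site (TSS) of a neighbouring gene lies close by on the opposite strand, and the same stretch of DNA serves both genes. Such a neighbour is called a head-to-head partner below when the TSSs are at most 1000 bp apart. A promoter summit is the highest point of a peak, placed within 500 bp of a TSS.

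The DNA between the paired TSSs is shown for some of the promoters described below, to let the reader see the intervals in or beside which the summits fall. The sequences are from the release 6 assembly (dm6), read 5′ to 3′ in the direction of the mitochondrial ribosomal protein gene. The partner's TSS is thus to the left and that of the mRp gene to the right. Capitals mark matches on either strand to the palindrome TAGCTA, to the core AGAGATG of the Sry-beta site, to GCGCATGC (the core of a nuclear respiratory factor site) or to GGTCACAC (a core promoter word). They also mark matches, with at most 2 mismatches, to the longer Sry-beta consensus determined in vitro. The first 3 stretches are whole intervals at high peaks, next to HtrA2, rept and CG15435.
mRpL11 (chr3R:14511713-14511837, plus strand): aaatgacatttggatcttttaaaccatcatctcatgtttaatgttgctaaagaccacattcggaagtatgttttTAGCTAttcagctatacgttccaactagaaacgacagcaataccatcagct
mRpL21 (chr3L:19255062-19255339, minus strand): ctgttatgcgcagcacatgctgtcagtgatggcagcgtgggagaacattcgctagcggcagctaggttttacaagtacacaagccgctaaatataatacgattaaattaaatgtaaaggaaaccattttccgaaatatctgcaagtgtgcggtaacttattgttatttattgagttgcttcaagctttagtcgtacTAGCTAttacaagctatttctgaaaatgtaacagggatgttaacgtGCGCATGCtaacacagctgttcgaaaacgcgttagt
mRpL27 (chr2L:4459639-4459728, minus strand): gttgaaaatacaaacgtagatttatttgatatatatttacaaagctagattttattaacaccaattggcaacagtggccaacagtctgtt
The next stretches belong to some of the lower peaks with a match to the Sry-beta consensus. The mRpL17 match was centred 50 bp from its summit. mRpL34, with a match 16 bp from its summit, is not shown. For mRpL35 the whole interval next to Mitofilin is given, and for mRpL17, next to Tudor-SN, the bases within 60 bp of the summit.
mRpL35 (chr3R:22023336-22023526, plus strand): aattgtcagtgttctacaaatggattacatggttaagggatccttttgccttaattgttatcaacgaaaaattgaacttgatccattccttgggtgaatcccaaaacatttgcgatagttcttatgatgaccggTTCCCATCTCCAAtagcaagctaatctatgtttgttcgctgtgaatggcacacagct
mRpL17 (chr3L:264383-264503, plus strand): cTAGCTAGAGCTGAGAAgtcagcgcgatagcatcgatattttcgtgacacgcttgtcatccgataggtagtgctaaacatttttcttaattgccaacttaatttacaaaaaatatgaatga
The last are short intervals without a summit in the IDR list (described below), next to CG17660 and FoxK.
mRpL48 (chr2L:1710422-1710461, plus strand): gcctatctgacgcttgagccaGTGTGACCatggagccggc
mRpL2 (chr3L:11120784-11120846, plus strand): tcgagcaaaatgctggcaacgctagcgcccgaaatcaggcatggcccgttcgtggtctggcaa

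In the mRpL21 interval the summit was at base 69 of 278, counted from the left, with TAGCTA at bases 197 to 202 and GCGCATGC at bases 243 to 250. The mRpL11 and mRpL27 summits fell to the left of the printed stretches, 86 and 54 bp inside the transcribed part of the partner. Their nearest TAGCTA matches, each 8 bp from the summit, are thus not printed. The higher of the 2 mRpL35 summits also fell to the left, 107 bp inside Mitofilin. In mRpL17 TAGCTA (bases 2 to 7) overlapped the consensus match (bases 5 to 17), and in mRpL35 the consensus match was at bases 135 to 147. The mRpL48 interval of 40 bases held the GGTCACAC word, on the minus strand, at bases 22 to 29.

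Of the 73 genes, 28 (38.4%) had a promoter summit in the authors' IDR list, which keeps peaks by their irreproducible discovery rate between replicates, compared with 18.0% of all protein-coding genes. The 28 genes comprised 19 of 47 for the large subunit (40.4%) and 9 of 26 for the small subunit (34.6%). The difference between the subunits was not tested. By arm, the count was 6 of 12 on 2L, 6 of 12 on 2R, 6 of 17 on 3L, 8 of 21 on 3R and 2 of 11 on X. The arms' shares over all protein-coding genes were 19.1, 15.8, 18.1, 19.3 and 17.6%. Cytoplasmic ribosomal protein genes, for comparison, had an IDR promoter summit in 60 of 93 cases (64.5%).

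The peaks at these promoters reached high places in the IDR list. The 28 genes carried 32 summits, with 2 each at mRpL39, mRpS22, mRpL41 and mRpL35 and 1 at each of the other 24. The median of the authors' signal value was 623 over the 32 summits and 310.0 over all 1988 promoter summits of the list. The median ranks were 769 and 1485.5 among 3257 peaks. The signal has no stated scale and serves only to order peaks within a list. Of the 32 summits, 3 were among the 20 highest IDR peaks (9.38%, against 0.905% of all promoter summits) and 7 among the 200 highest (21.9% against 9.0%).

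**Figure D1:**
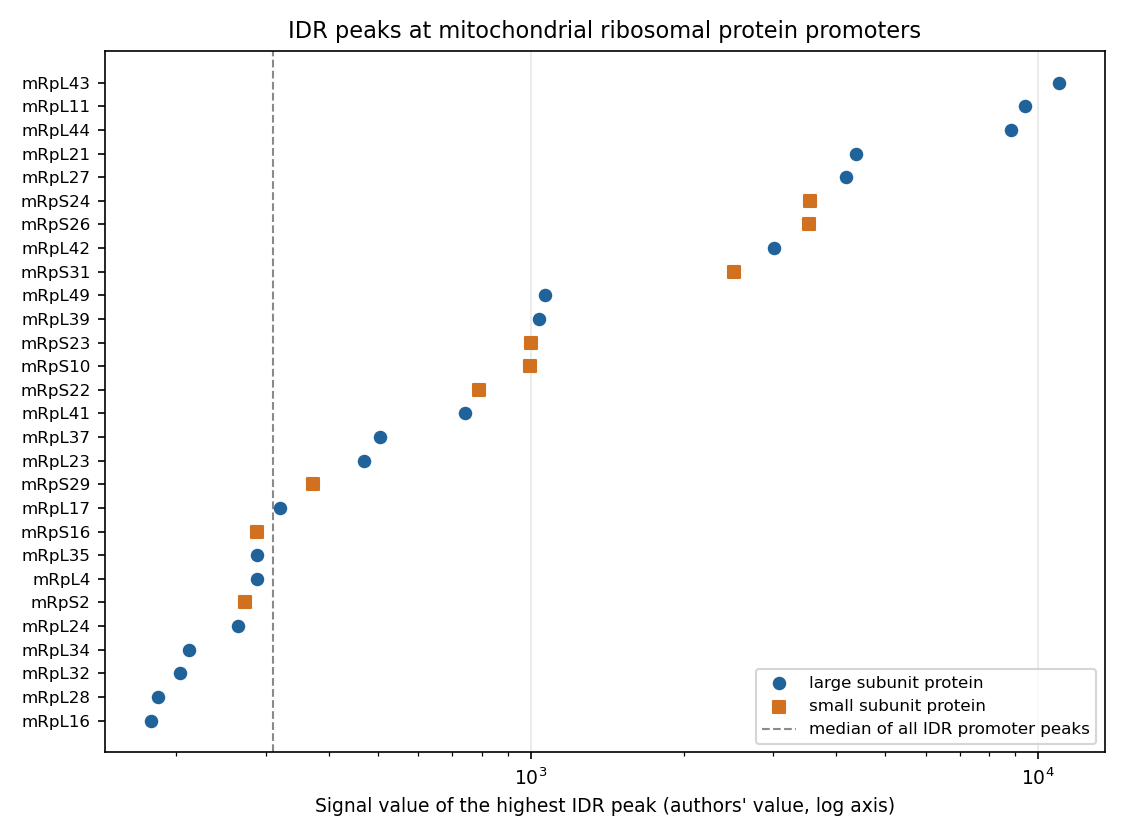
Signal value of the highest IDR peak at each of the 28 promoters (log axis), for large subunit proteins (circles) and small subunit proteins (squares). The dashed line is the median of all 1988 IDR promoter peaks, 310.0; 19 genes lie above it, and the upper 9, from mRpS31 upwards, stand apart from the rest with signals of 2517 or more.

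mRpL43 had the highest of these peaks, with a signal of 11009 and rank 3. It encodes a large subunit protein that has no bacterial counterpart. Each replicate also has a relaxed list of 30000 peaks, and the rank given below for a replicate is that of the gene's highest promoter peak in it. For mRpL43 this was 9 in replicate 2 and 4 in replicate 4. The peak, on 2R from 23697535 to 23698489, had its summit 100 bp upstream of mRpL43 and 181 bp from the TSS of CG30183.

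mRpL11, the counterpart of the bacterial protein at the base of the ribosomal stalk, came next with a signal of 9435 and rank 8. Its peak ranked 10 in both replicates. The peak, on 3R from 14511179 to 14512136, had its summit 212 bp upstream of mRpL11, inside HtrA2, which encodes a mitochondrial serine protease. mRpL44, whose product resembles ribonuclease III, followed with 8830 and rank 12, and with ranks 29 and 8 in replicates 2 and 4. That peak, on 3R from 5470187 to 5471381, was 216 bp upstream of mRpL44 and 74 bp from Snr1, the gene for a component of the Brahma chromatin remodeller. In both replicates these 3 peaks were among the 29 highest.

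mRpL21 had a signal of 4380 (rank 132), with ranks 122 and 133 in replicates 2 and 4. Its summit was 210 bp upstream and 69 bp from rept, the gene for the ATPase Reptin. mRpL27, the counterpart of a bacterial protein near the peptidyl transferase centre, had 4178 (rank 146), with ranks 135 and 146. The summit was 145 bp upstream of it and 54 bp inside CG15435. Both genes kept nearly the same rank in the replicates.

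Small subunit genes came next. mRpS24 had a signal of 3556 (rank 193) and ranks 237 and 168, with its summit 345 bp upstream and 76 bp from Apc2, a homologue of the adenomatous polyposis coli gene. mRpS26 had 3537 (rank 194) and ranks 256 and 157, with its summit 187 bp upstream, in the interval shared with CG13698. mRpS31 had 2517 (rank 271) and ranks 322 and 247, 84 bp upstream, in the interval shared with hzg. All 3 ranked higher in replicate 4 than in replicate 2.

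mRpL42 had a signal of 3016 (rank 225), with ranks 154 and 252, and a summit 46 bp downstream of its TSS. It shares its promoter with PIG-N, a gene of glycosylphosphatidylinositol anchor synthesis. mRpL49 had 1066 (rank 512), with ranks 474 and 523, and a summit 61 bp upstream. Of the 28 genes, mRpL49 alone had no head-to-head partner within 1000 bp.

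The remaining 18 genes ran from mRpL39, with a signal of 1039 and rank 519, to mRpL16, with 178 and rank 3044. Ranks from 531 to 943 belonged to mRpS23, mRpS10, mRpS22, mRpL41, mRpL37 and mRpL23, with signals of 1001, 996, 789, 743, 504 and 469. mRpS29, a GTP-binding protein gene that shares its promoter with the DNA repair gene rad50, had 372, and mRpL17 had 321. Below the median of all promoter summits were mRpS16 and mRpL35 with 289 each, mRpL4 with 288, mRpS2 with 273, mRpL24 with 265, mRpL34 with 212, mRpL32 with 203, mRpL28 with 184 and mRpL16.

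Nearly all of the genes with an IDR summit were those with a head-to-head partner. Of the 73 genes 58 (79.5%) had a protein-coding partner, compared with 36.2% of all protein-coding genes and 60.2% of cytoplasmic ribosomal protein genes. Among the 58 genes 27 had an IDR summit (46.6%), and the share over all genes with a partner was 34.4%. Among the 15 without a partner it was 1, mRpL49 (6.67%), and the share over all genes without a partner was 8.77%. In the IDR list the share of mRp genes with a summit was therefore nearer to the background within each class than over all genes together. In contrast, cytoplasmic ribosomal protein genes had a summit in 39 of 56 cases with a partner (69.6%) and in 21 of 37 without (56.8%). In the highest 3257 peaks of replicate 2, 28 of the 58 genes with a partner had a summit (all genes 33.7%) and 2 of the 15 without (all genes 9.91%). In those of replicate 4 the counts were 25 (all genes 34.0%) and 1 (all genes 7.91%). The relaxed list of the pooled replicates differed for genes without a partner. There 10 of 15 had a summit (66.7%, all genes 39.6%), and 52 of 58 with a partner (89.7%, all genes 76.9%).

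Among the partnered genes, peaks were counted by the distance between the paired TSSs. With less than 100 bp between them, 4 of 18 mRp genes had an IDR summit (22.2%), where all genes of this class had 33.8%. From 100 to under 200 bp it was 3 of 4 (all genes 30.2%), and from 200 to under 300 bp it was 9 of 11 (81.8%, all genes 46.8%). From 300 to under 500 bp it was 8 of 20 (40.0%, all genes 39.6%), and from 500 to 1000 bp it was 3 of 5 (all genes 21.2%). Over the middle range, from 100 to under 500 bp, 20 of 35 mRp genes had a summit (57.1%, all genes 40.0%). The 4 genes under 100 bp with a summit were mRpL23 at 24 bp, mRpL28 at 55 bp, mRpL27 at 91 bp and mRpS16 at 97 bp. From 200 to under 300 bp the 2 without a summit were mRpL54 and mRpS21. In replicate 2 alone the counts were 6 of 18 under 100 bp (33.3%, all genes 37.5%), 9 of 11 from 200 to under 300 bp (all genes 43.7%) and 8 of 20 from 300 to under 500 bp (40.0%, all genes 35.4%). In replicate 4 alone they were 3 of 18 (16.7%, all genes 29.2%), 9 of 11 (all genes 45.0%) and 7 of 20 (35.0%, all genes 42.4%). From 100 to under 200 bp the counts in replicates 2 and 4 were 2 and 3 of 4 (all genes 34.4 and 30.1%). From 500 to 1000 bp they were 3 of 5 in each (all genes 20.8 and 21.6%). These 2 classes and that from 200 to under 300 bp were thus above the share of all genes in both replicates. The class from 300 to under 500 bp was above it in replicate 2 and below it in replicate 4. The classes are small and were chosen after the distances were seen.

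**Figure D2:**
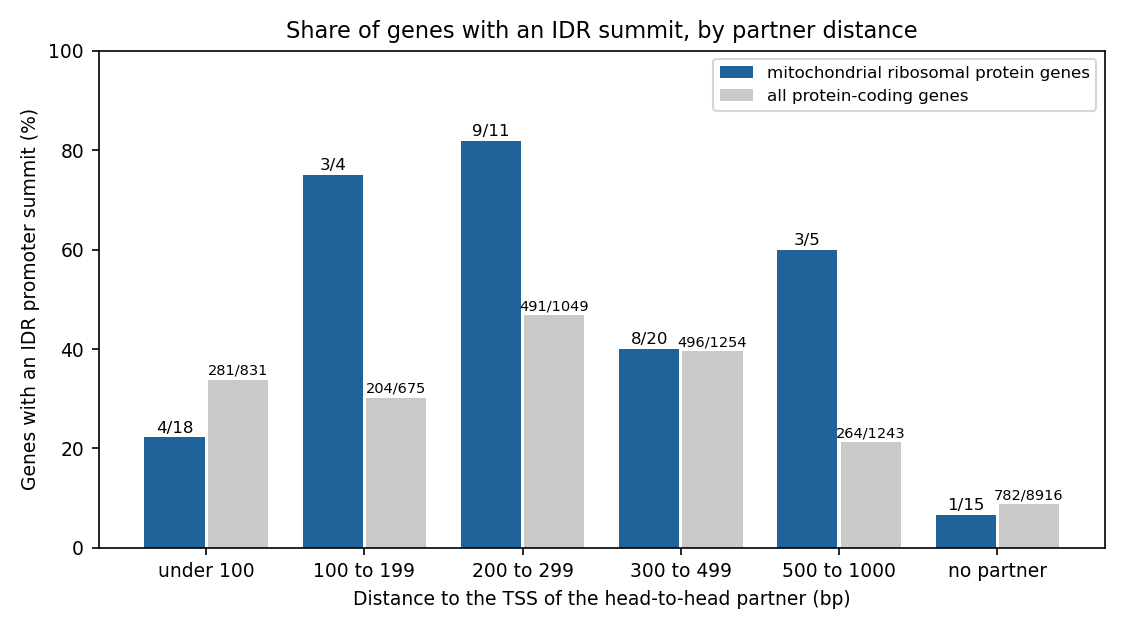
Percentage of genes with an IDR promoter summit by distance to the TSS of the head-to-head partner, for the mRp genes and for all protein-coding genes, with the counts above the bars. The mRp share was highest from 200 to under 300 bp (9 of 11 genes) and was 1 of 15 without a partner.

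Summits lay mostly upstream of the mRp gene and within the shared interval. Of the 32 summits 28 (87.5%) were upstream of the mRp TSS, at a median position of -151.5 bp. Over all 2974 pairs of a gene and an IDR promoter summit the share upstream was 88.5% and the median -124 bp. Between the paired TSSs lay 24 summits, with 4 inside the mRp gene (mRpL39, which had 2, mRpL42 and mRpL23), 3 inside the partner (mRpL11, mRpL27 and mRpL35) and 1 at the unpaired mRpL49. These places were not counted over all head-to-head pairs, so they cannot be called particular to mRp promoters. The distance to the nearest protein-coding TSS of any gene had a median of 84 bp, against 97 bp over all promoter summits. Measured from the mRp TSS, the farthest summit counted was 368 bp away, at mRpS23. The nearest beyond the 500 bp limit was a lower peak 911 bp downstream of mRpL27, so no gene was near the limit.

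The nearest TSS belonged to the mRp gene at 16 summits and to its head-to-head partner at the other 16. This split rests on exact summit positions in the IDR list and was not recounted with the replicates' summits. At mRpS2, with 222 bp between the TSSs, the summit was 188 bp upstream in the IDR list and 92 bp in replicate 4. Of the 6 highest peaks, the partner's TSS was nearer at mRpL11, mRpL44, mRpL21, mRpL27 and mRpS24, where the summit lay 86, 74, 69, 54 and 76 bp from it. When each summit was assigned to the gene of its nearest TSS alone, 14 of 73 mRp genes kept a peak (19.2%), and 13.2% of all protein-coding genes did. Cytoplasmic ribosomal protein genes kept 57 of 93 (61.3%). The peak lists give no direction, so which gene of a pair a summit belongs to cannot be told apart. Among partners of the lower peaks were Prosbeta2, a proteasome subunit gene next to mRpL39, Mitofilin, a gene of cristae organisation next to mRpL35, qless, a gene of coenzyme Q synthesis next to mRpL32, Dg, the dystroglycan gene next to mRpL34, and trr, a histone methyltransferase gene next to mRpL16.

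**Figure D3:**
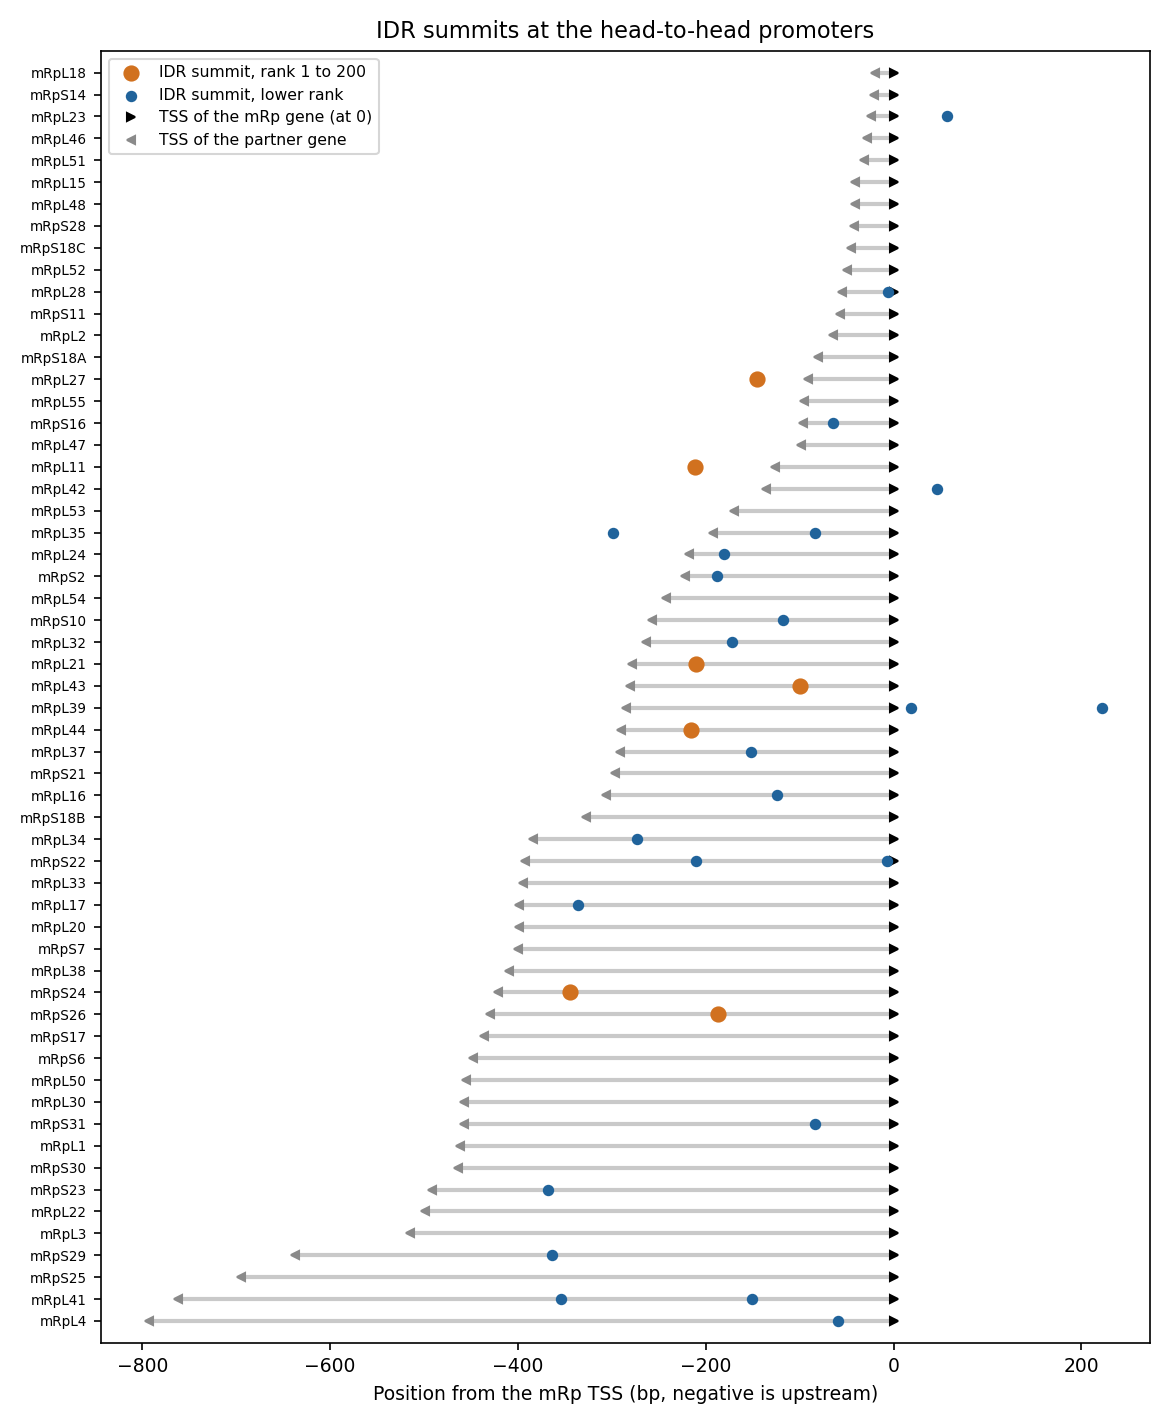
Position of the IDR summits at the 58 head-to-head promoters, ordered by the distance between the TSSs. The mRp TSS is at 0 and the partner TSS to its left; large points are peaks among the 200 highest. At mRpL11, mRpL44, mRpL21, mRpL27 and mRpS24 the summit sat nearer the partner, and at mRpL43 and mRpS26 nearer the mRp gene.

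Most promoters with an IDR summit were among the highest peaks of both replicates, whose lists share 1 control alignment. The IDR list is derived from the replicates' lists and keeps peaks by their agreement. This overlap is therefore built in and is no separate evidence for the peaks. Among the highest 3257 peaks of each replicate, as many as the IDR list holds, replicate 2 had a summit at 30 mRp promoters (41.1%, all genes 18.5%) and replicate 4 at 26 (35.6%, all genes 17.4%), so 28.0 ± 2.83 (SD, n = 2). Both replicates shared 24 of these genes, all with an IDR summit. Of the other IDR genes, mRpL28 and mRpL16 were in the replicate 2 set alone, with ranks 3099 and 3523, and 3076 and 3602, in replicates 2 and 4. mRpL35 and mRpL34 were in the replicate 4 set alone, with ranks 3467 and 1676, and 3265 and 2218. Among the IDR genes, the ranks in replicates 2 and 4 lay farthest apart at mRpS16 (932 and 2941), mRpL35 and mRpL17 (2624 and 1088). All 32 IDR summits had a replicate 4 summit at most 100 bp away, and 28 had a replicate 2 summit that near. The exceptions were the summits of mRpS29 and mRpL34 and the lower of the 2 summits at mRpS22 and at mRpL41, from which the nearest replicate 2 summits were 247, 110, 114 and 230 bp away.

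**Figure D4:**
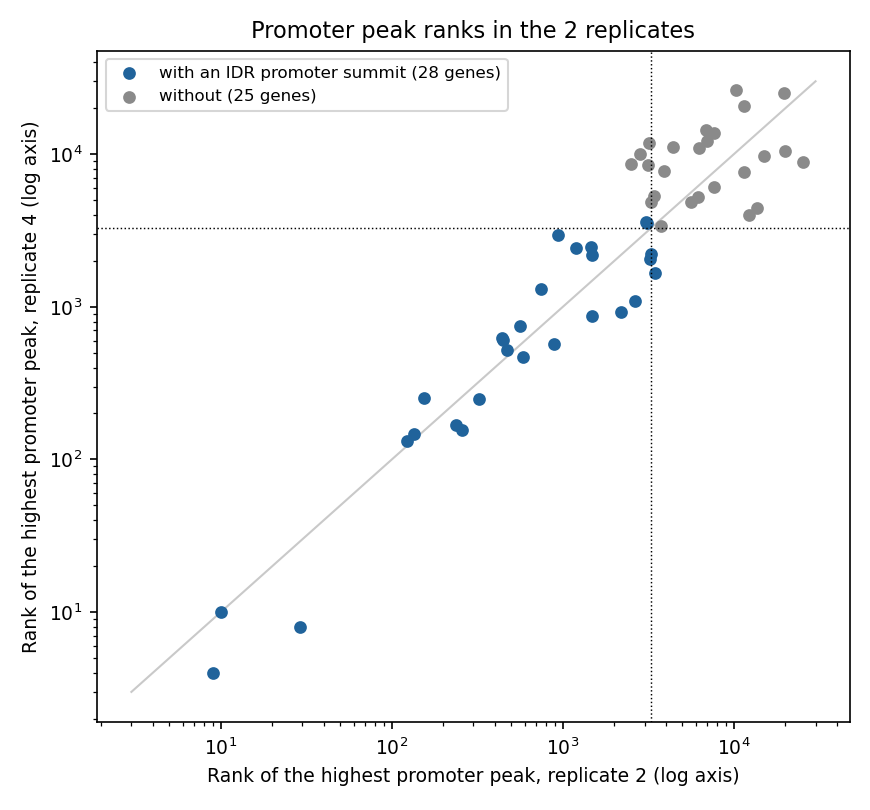
Rank of the highest promoter peak in the relaxed lists of replicates 2 and 4 (log axes) for the 53 mRp genes with a promoter summit in both, 28 of them with an IDR summit. Dotted lines mark rank 3257 and the grey line equal ranks; mRpL43, mRpL11 and mRpL44 are at the lower left.

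Most of the other mRp promoters held weak peaks. In the pooled relaxed list, 62 of 73 genes had a promoter summit (84.9%, all genes 53.1%). In replicate 2 it was 64 (87.7%, all genes 54.6%) and in replicate 4 it was 57 (78.1%, all genes 50.4%). Of the 45 genes without an IDR summit 34 had a pooled summit. The share over all protein-coding genes without an IDR summit was not counted, so the 34 are not read as a trait of mRp genes. The highest of these were mRpL47 at rank 3319, mRpS30 at 3978, mRpL48 at 4058, mRpL2 at 4238 and mRpS17 at 4698. mRpL47 ranked 3274 in replicate 2 and 4827 in replicate 4. mRpL48 ranked 2496 and 8578, and mRpL2 2805 and 10011. Genes without an IDR summit that were among the highest 3257 peaks of a replicate numbered 4, all in replicate 2: mRpL48, mRpL2, mRpS6, with ranks 3163 and 8509, and mRpL13, with 3176 and 11744. mRpL48 and mRpL2 have TSSs 41 and 64 bp from those of their partners.

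In none of the 4 lists was there a promoter summit at mRpL30, mRpL36, mRpL38, mRpS34 or mRpS9, so 5 of 73 (6.85%), compared with 37.5% of all protein-coding genes. A further 6 genes, mRpL14, mRpL19, mRpL46, mRpL52, mRpS14 and mRpS28, had a summit in a replicate's list but not in the pooled list. A list of fixed length shows only the highest peaks, so a missing summit does not show that the protein was absent.

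Both strands of the 50 bp on either side of each summit were searched for short sequence motifs. The palindrome TAGCTA, which earlier results of these data had brought up, was at 5 of the 32 summits (15.6%) and at 9.1% of all 1988 IDR promoter summits. The 5 were mRpL11, mRpL44, mRpL27, mRpL42 and mRpL34. The TATCGATA word of the DNA replication-related element (DRE), bound by DREF, was at 0 of 32 (5.28% of promoter summits), and so was GGTCACAC of the core promoter element Motif 1 (3.12%). AGAGATG, a core shared by the in vitro consensus sites of Sry-beta and Sry-delta, was at 1, mRpL34 (3.12%, against 3.27%). The longer Sry-beta consensus, which contains AGAGATG, was matched with at most 2 mismatches at 2, mRpL35 and mRpL34 (6.25%, against 2.11%). GCGCATGC, the core of the site bound by nuclear respiratory factor 1 in mammals, was at 0 of 32 (0.201%). The zeros hold for this window only: a TATCGATA was centred 48 bp from a mRpL39 summit and a GGTCACAC 49 bp from the mRpS16 summit, each reaching past its edge. Within 250 bp, TATCGATA was at 5 of 32 summits (15.6%, against 16.5% of all promoter summits), GGTCACAC at 5 (15.6%, against 11.1%) and GCGCATGC at 1 (3.12%, against 1.16%). In the same wider window AGAGATG was at 8 of 32 (against 12.6% of all promoter summits) and the Sry-beta consensus at 5 (15.6%, against 9.56%). The windows were AT-rich, with a median GC content of 31.7%, and 35.6% over all promoter summits.

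TAGCTA lay near most of the highest peaks. Within 250 bp of the summit it was present at 10 of 32 (31.2%; 21.5% of all promoter summits). These were 7 of the 8 highest, mRpL43, mRpL11, mRpL44, mRpL21, mRpL27, mRpS24 and mRpL42, and 3 of the lower ones, mRpL17, mRpL4 and mRpL34. The nearest match was 79, 8, 23, 130, 8, 60 and 21 bp from the 7 high summits. mRpS26 had none in this window. Over all IDR promoter summits the share with TAGCTA within 250 bp also fell with rank, from 54.7% of the 179 among the 200 highest peaks, to 29.1% for later ranks up to 1000 and 13.7% beyond. The mRp counts in these classes were 6 of 7, 1 of 12 and 3 of 13.

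The promoters themselves, from 250 bp upstream to 50 bp downstream of the annotated 5′ end were searched in the same way. TATCGATA was in 15 of 73 mRp promoters (20.5%; 9.36% of all 13968), 7 of the 28 with an IDR summit and 8 of the 45 without. In the interval of mRpL39 it occurred at bases 3 to 10 and 253 to 260, and both summits were inside the gene. GGTCACAC was in 8 (11.0%; 7.7%), 2 of the 28 with a summit and 6 of the 45 without. TAGCTA was in 10 (13.7%; 7.4%). These were 6 of the 28 with a summit (mRpL43, mRpL11, mRpL44, mRpL21, mRpL27 and mRpL4) and 4 of the 45 without (mRpL14, mRpL19, mRpL45 and mRpL51). AGAGATG was in 5 (6.85%; 4.93%), all with an IDR summit: mRpL32, mRpL41, mRpL43, mRpL44 and mRpS24. The Sry-beta consensus was in 3 (4.11%, against 5.13%), also all with a summit, mRpL32, mRpL35 and mRpS24. At mRpS24 neither match was within 250 bp of the IDR summit, which lay 345 bp upstream. Over all promoters with AGAGATG or the consensus, the share with an IDR summit was not counted. The counts of 5 and 3, with mRpL32 and mRpS24 in both, are therefore not read as a link between motif and summit. GCGCATGC was in mRpL21 alone (1.37%, against 1.05%).

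Other genes of the mitochondrial ribosome and of mitochondrial gene expression, outside this name pattern, were counted beside them with no test of the difference. tko and bonsai, which encode the mitochondrial ribosomal proteins S12 and S15, had no IDR summit. Their pooled peaks ranked 9769 and 13293, and both had ranks in replicate 2 (4034 and 6297) and none in replicate 4. Of 21 matched genes for mitochondrial translation factors, transcription factors and DNA replication enzymes 4 had an IDR summit (19.0%), a share close to the 18.0% of all protein-coding genes. The 4 are given by their values only. mTerf3, a regulator of mitochondrial transcription and translation, had a signal of 2332 and ranked 259 in replicate 2 and 284 in replicate 4. PolG2, the accessory subunit of the mitochondrial DNA polymerase, had 821, with ranks 561 and 651. mtSSB, the mitochondrial single-stranded DNA binding protein gene, had 239, with ranks 1025 and 4947, and mTerf5 had 177, with ranks 2882 and 3662. The mTerf3, PolG2 and mTerf5 genes have head-to-head partners, CG5104, Polr2C and Non3, and mtSSB has none.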

How the data were processed

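Peak lists in narrowPeak format on dm6 were deposited for 2 ChIP-seq libraries. Readmes deposited with the lists record 1 control alignment shared by both replicates, a relaxed list for each replicate and for their pool, and an IDR list derived from these 3. The sources used here do not give aligner, caller or IDR threshold. The authors' signal value, of no stated scale, ranked peaks within a list. The −log10 q values that were deposited had no use here. Positions were summits, moved to the last base of the peak where they passed its end (1 to 3 peaks a list).

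Gene models were those of Ensembl release 115, and bases were read from the release 6 assembly. Counts, positions and motif matches were computed with Python 3.11.15, numpy 2.4.6 and pandas 2.3.3, and the counting functions were tested on simulated data. Of 26 listed symbols of other mitochondrial genes, 4 were not matched and 2 named the same gene. The 28 genes with an IDR summit were all named, and those of the 10 highest signals described in full. Members, gene lists and motifs were chosen with earlier results of these data known, so members were described beside all protein-coding genes and no test was made. The distance classes were chosen after values were seen. Alternatives covered windows, TSS choice, partner distance, nearest-TSS assignment, list length, motif window and each replicate alone. Nothing says whether the replicates came from separate embryo collections beyond their labels as biological replicates. Some items are not reported here.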

Additional observations from a re-analysis of the deposited data

How the results depend on the processing

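Of 47 alternative counts 42 stayed within 1.5 times the reported one. The number of mRp genes with an IDR summit was 28 and ran from 19 to 30 over the promoter window (250 or 1000 bp), peak overlap in place of the summit, 1 TSS per gene, the higher-signal part of the list and each replicate alone (26 without replicate 2, 30 without replicate 4). The IDR count was 14 when a summit counted only for the gene of its nearest TSS, because paired genes then share no summit. The median signal of 623 was 744 with a 250 bp window, 504 with 1000 bp and 743 with nearest TSSs. With either replicate alone, the relaxed lists gave 57 to 64 genes (62 pooled), genes with a partner and a summit 25 to 28 (27), and upstream summits 29 (28). Summits with any of the 6 motifs numbered 6, and 14 with 100 bp on either side, a wider window, in which TAGCTA went from 5 to 8. The mean number of genes in the replicates' highest peaks was 28.0, and by construction of shorter or longer lists it was 17.0 among the highest 1000 and 45.5 among the highest 10000. The shares over all genes were not counted for these lengths. Counts by partner distance in each replicate alone were added after the data were seen. No paired analysis was possible because there was 1 group.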
